A study of Mus musculus with 2 samples.

Results

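The genes described are 8 interferon regulatory factors (IRFs), Irf1, Irf2, Irf3, Irf4, Irf5, Irf7, Irf8 and Irf9, out of 19871 genes with a named row in the table. They were chosen by name, as rows annotated with that 1 symbol, and the row with the highest mean of both arrays was kept where a gene had several. The arrays came from bone marrow derived macrophages of mice aged 8 weeks, 1 array labelled beta-catenin deficient and 1 control array, and both cultures were grown with conditioned medium of L929, a fibroblast line of the mouse whose medium drives macrophage growth. The sources used here do not give the mouse line, the way beta-catenin was removed or the number of animals. Expression was measured with a whole-transcript Affymetrix array and is given as RMA values, which are on the log2 scale, so that a difference of 1 is a 2-fold difference. With 1 array per group there is no replicate error, no test was made, and higher and lower describe these 2 arrays only. Levels of different genes come from different probes and are not compared with each other.

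IRFs are transcription factors that share a DNA-binding domain and read GAAA repeats, the letters of the interferon-stimulated response element (ISRE). IRF3 and IRF7 are switched on by phosphorylation after pathogen sensing and turn on interferon genes, IRF5 turns on inflammatory cytokine genes, and IRF9 is the DNA-binding part of the complex ISGF3, which carries the type I interferon signal to the ISRE. IRF1 is an activator induced by interferon-gamma and IRF2 often opposes it, while IRF8 and IRF4 pair with PU.1 and shape myeloid and lymphoid cells. Irf7 itself is a target of ISGF3 in many cells. In macrophages the IRFs are known for setting interferon responses, inflammatory activation and lineage identity.

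Beta-catenin RNA does not check the label. Ctnnb1 was 11.44 in the array labelled deficient and 11.29 in control, a difference of 0.15, and probes outside a deleted part would not show a deletion. Since its RNA was as high as in control, this sample is named only by its label, as the array labelled deficient, and all directions below depend on it. Axin2, a gene that beta-catenin switches on, was 5.97 in the array labelled deficient and 7.61 in control, a difference of -1.64 (chosen after its values were seen). Axin2 reached the floor described below only through the control array, where it lay close to it. Macrophage genes were bright in both arrays, with Csf1r at 12.35 in the array labelled deficient and 12.25 in control, and 8 of the 9 macrophage markers at or above the floor lay within 1.5-fold. The floor is 7.28, which is the median over every value of both arrays, and a gene was counted only where the higher of its values reached it, which 10658 genes did. Differences across all genes were not centred on zero. Their median was -0.15 over all genes and -0.08 at or above the floor, and it was -0.52 for 540 genes whose mean level lay between 3 and 4.

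Windows of 250 bases before an annotated transcript start were searched. They are shown for Irf1, Irf2 and Irf8, the members whose window held letters of an interferon response motif, and for Irf7, the member with the largest difference. The start used for Irf7 lies inside its gene, so 75 bases of that window are within the gene's widest span and the other 175 are printed. The sequences are RefSeq's, build GRCm38.p6, written 5′ to 3′ along the gene. Capitals mark ISRE letters (GAAA, any 2 bases, GAAA) and letters of the gamma-activated site, an element of interferon-gamma responses (TTCNNNGAA), each searched on both strands.
Irf7 (chr7:141266500-141266674, minus strand): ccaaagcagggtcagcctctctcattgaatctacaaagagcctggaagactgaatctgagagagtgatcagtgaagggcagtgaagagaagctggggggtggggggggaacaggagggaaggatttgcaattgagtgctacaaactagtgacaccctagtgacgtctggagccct
Irf1 (chr11:53769764-53770013, plus strand): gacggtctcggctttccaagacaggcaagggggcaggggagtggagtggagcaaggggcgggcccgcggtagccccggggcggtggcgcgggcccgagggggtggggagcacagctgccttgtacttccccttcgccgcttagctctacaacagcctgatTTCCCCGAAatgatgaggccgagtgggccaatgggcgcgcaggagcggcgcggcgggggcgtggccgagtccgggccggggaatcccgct
Irf2 (chr8:46739495-46739744, plus strand): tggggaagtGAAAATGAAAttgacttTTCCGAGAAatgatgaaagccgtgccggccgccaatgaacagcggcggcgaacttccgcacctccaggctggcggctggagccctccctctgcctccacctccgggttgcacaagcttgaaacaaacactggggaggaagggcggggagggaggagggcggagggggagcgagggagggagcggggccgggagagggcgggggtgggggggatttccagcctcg
Irf8 (chr8:120736108-120736357, plus strand): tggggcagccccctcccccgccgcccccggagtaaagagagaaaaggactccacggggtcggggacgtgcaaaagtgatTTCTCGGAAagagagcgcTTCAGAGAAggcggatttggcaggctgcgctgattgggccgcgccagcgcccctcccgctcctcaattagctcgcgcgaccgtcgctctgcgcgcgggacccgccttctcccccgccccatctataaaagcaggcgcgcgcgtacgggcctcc
All 8 members had a window, and Irf1, Irf8 and Irf9 had 2, of which the first is shown for Irf1 and Irf8 and the second lies within the gene. The only window of Irf5 also lies wholly within its gene, so no bases before the widest start of Irf5 were searched. ISRE letters were found for 1 member, Irf2, 241 bases before its start, where they overlap the ETS and IRF composite letters (GGAA, any 2 bases, GAAA) at 247 bases. Letters of the gamma-activated site were found for 3 members, Irf1 at 90 bases, Irf2 at 224 bases and Irf8 at 171 and 153 bases. Over all 27025 genes with a window, 3.46% held the ISRE letters, 8.13% those of the gamma-activated site, 2.68% the composite letters and 3.72% the TCF and LEF letters CTTTGAT, which 0 members held. A match is a description of letters, and a window without one says only that these letters are not in it.

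Irf7 was the one member past 1.5-fold. It was 11.03 in the array labelled deficient and 9.25 in control, a difference of 1.78, or 3.43-fold. Irf7 ranked 68th from the highest among the 10658 genes at or above the floor. Among the 1919 genes within 0.5 of its mean level, 99.6% had a lower difference, and Irf7 lay 1.85 above the median difference of those genes. Both values were well above the floor, so the difference does not rest on the dim range.

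By the rule of size, 1 of 8 members was at least 1.5-fold higher and 0 were at least 1.5-fold lower. Over all 10658 genes that reached the floor the same rule gave 7.54% higher and 8.81% lower. Irf4 did not reach the floor, so the like share is 1 of 7 members (14.3%), beside 12.5% of all 8. A count of 1 is not far from the background, and it rests on Irf7 alone. At 2-fold the count was again 1 higher and 0 lower, where 2.96% of genes were higher and 1.59% lower. By sign alone, 6 members were higher and 2 lower, and the share of all genes above zero was not counted beside this. The median difference was 0.30 over all 8 members and 0.26 without Irf7. It was -0.15 over all genes, which include many dim ones, and -0.08 over those that reached the floor. Genes within 0.5 of a member's mean level had medians from -0.13 (Irf4) to -0.05 (Irf5).

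**Figure D1:**
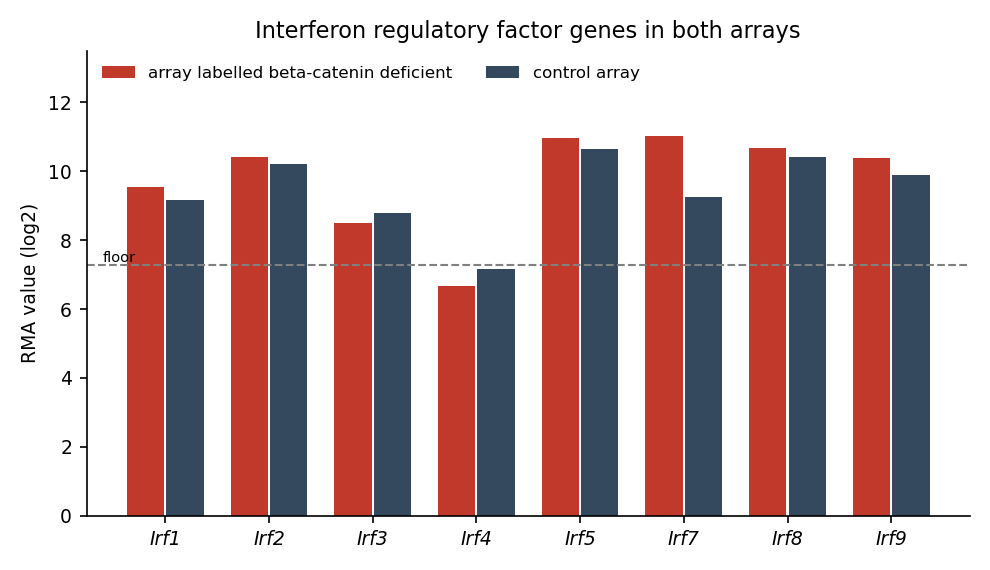
RMA value (log2) of each of the 8 IRF genes, with the array labelled deficient as the left bar and control as the right bar of each pair, 1 array per bar and no error. Irf7 shows the widest gap, 11.03 against 9.25, and Irf4 lies under the dashed floor of 7.28 in both arrays.

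Irf9, the DNA-binding part of ISGF3, had the second highest difference. It was 10.38 in the array labelled deficient and 9.88 in control, which is 0.50 or 1.42-fold, above the difference of 90.5% of genes at or above the floor. Centring on the median of all genes brought Irf9 to 0.66, past 1.5-fold. In 7 of the 8 alternatives it stayed within 1.5-fold, and loess gave 0.583, just under the line of 0.585.

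Irf3, the constitutively made factor that starts the first wave of interferon-beta, was 8.50 in the array labelled deficient and 8.78 in control, a difference of -0.28 or 1.21-fold lower. Its difference was above that of 28.9% of genes. Irf3 and Irf7, which act in the same step after pathogen sensing, thus lay on opposite sides of zero in these arrays.

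Irf5, the factor tied to inflammatory macrophage cytokines, was 10.98 in the array labelled deficient against 10.64 in control, a difference of 0.34. Irf1, the interferon-gamma induced activator, was 9.55 in the array labelled deficient against 9.16 in control, a difference of 0.39. A second Irf1 row, annotated by 1 cDNA accession and below the floor in both arrays, read 6.89 in the array labelled deficient and 6.70 in control, a difference of 0.19 in the same direction. Irf2, which competes with IRF1 for its sites, was 10.41 in the array labelled deficient against 10.20 in control, a difference of 0.21. None of these 3 genes reached 1.5-fold, and activator and competitor were both on the higher side.

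Irf8, a factor of monocyte and macrophage identity, was 10.66 in the array labelled deficient and 10.41 in control, a difference of 0.26. Irf4, its closest relative, known in alternatively activated macrophages, dendritic cells and B cells, was 6.66 in the array labelled deficient and 7.15 in control, a difference of -0.49. Both Irf4 values were below the floor, so it was not counted. Genes within 0.5 of its mean level had a median difference of -0.13, and Irf4 lay 0.37 under that.

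**Figure D2:**
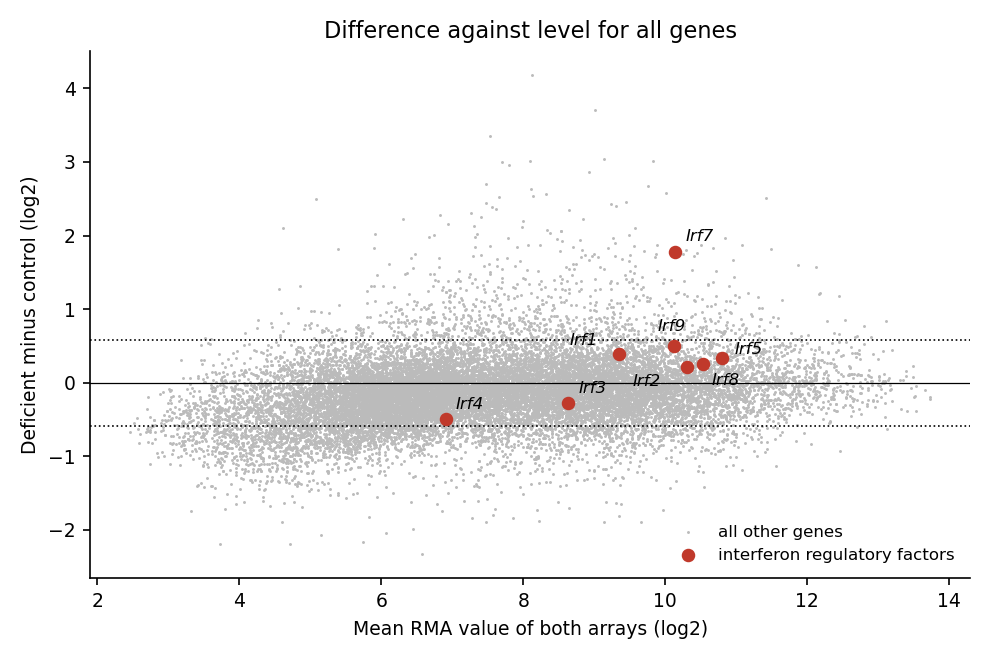
Difference (array labelled deficient minus control, log2) against the mean RMA value of both arrays (log2) for 19871 genes in grey and the 8 IRFs in red, with dotted lines at 1.5-fold. Irf7 stands at 1.78 above the cloud of genes of its level, and the other IRFs lie between -0.49 and 0.50, inside the dotted lines.

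The genes that act with the IRFs on DNA mostly lay within 1.5-fold. Of 10 partners that reached the floor, 1 was past 1.5-fold on the higher side and 0 on the lower side, with a median difference of -0.16. The highest was Stat2, the partner of IRF9 in ISGF3, at 10.13 in the array labelled deficient against 9.32 in control, a difference of 0.81. Next came the AP-1 genes Jun (0.37) and Junb (0.10), and the lowest were the coactivator Ep300 (-0.53), the NF-kB subunit Rela (-0.53) and the lymphoid factor Ikzf1 (-0.44). Spi1, which encodes PU.1, was 12.10 in the array labelled deficient and 12.26 in control (chosen after its values were seen). The IRF2-binding corepressors Irf2bp2 (-0.40), Irf2bp1 (-0.26) and Irf2bpl (-0.01) all lay within 1.5-fold.

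Sensors and kinases that switch on IRF3, IRF5 and IRF7 went both ways. Past 1.5-fold, 3 of 19 that reached the floor were higher and 1 was lower, and the median difference was 0.11. Ikbke, an IRF kinase that interferon itself induces, was 10.45 in the array labelled deficient and 9.38 in control, a difference of 1.06. The cytosolic RNA sensors Ddx58, which encodes RIG-I (0.69), and Ifih1, which encodes MDA5 (0.67), were the other higher genes, and both are also in the list of ISGF3 targets below. The lowest were the endosomal receptors Tlr3 (-0.71) and Tlr9 (-0.50) and the adaptor Traf6 (-0.48).

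Genes that restrain the pathway were also mixed. Past 1.5-fold, 2 of 14 were higher and 1 was lower, and their median of -0.04 turned positive under centring, quantile normalization and loess. The higher genes were Usp18, an interferon-induced inhibitor of the type I receptor (1.18), and Trim21, a ubiquitin ligase that acts on IRFs (0.81), with the cytokine inhibitor Socs3 next (0.33). The lowest were the ubiquitin ligase Peli1 (-0.79), the STAT inhibitor Pias1 (-0.29) and Nlrc3 (-0.23).

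Interferon receptors and their kinases showed 0 of 8 genes past 1.5-fold in either direction, and the median of -0.06 turned to 0.09 under centring. The highest were Tyk2 (0.24), Ifngr1 (0.21) and Jak1 (0.06), and the lowest were Il10rb (-0.27), Ifnar1 (-0.26) and Jak2 (-0.11). Of 15 interferon genes in the table, 4 reached the floor and 0 of these were past 1.5-fold. They were Ifnl2 (-0.04), Ifnz (-0.22), Ifna5 (-0.38) and Ifna14 (-0.57), and the alpha genes resemble each other so closely that probes may cross-read. Ifnb1 was 5.32 in the array labelled deficient and 5.39 in control, below the floor in both (chosen after its values were seen). Secreted interferon protein was not measured.

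Target genes of ISGF3 were higher along with Irf7, Irf9 and Stat2. Of 27 that reached the floor, 20 were past 1.5-fold on the higher side, 7 lay within 1.5-fold and 0 were past it on the lower side. All 20 higher genes had a control value at or above the floor. The median difference of the list was 0.67, against -0.08 over all genes that reached the floor. Oasl1, a 2′-5′ oligoadenylate synthetase-like protein that in mice limits translation of Irf7 mRNA, was 9.90 in the array labelled deficient and 8.20 in control, a difference of 1.70, close to that of Irf7. The antiviral GTPase Mx1 (1.53) and the nucleic acid sensor Zbp1 (1.36) followed, and the smallest differences were those of Samd9l (0.03), Herc6 (0.07) and Parp14 (0.36). This list overlaps a wider interferon list that was known to be higher in these arrays, so it is a description and not separate support.

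ISRE letters stood in the window of 8 of 20 ISGF3 targets with a promoter sequence. Those of the 2 such targets with the largest differences are shown because they are the letters that the IRFs read, in capitals, with up to 10 bases on each side, RefSeq GRCm38.p6, along the gene. The TTTC repeats are the same element read on the opposite strand.
Rsad2 (chr12:26456553-26456582, minus strand): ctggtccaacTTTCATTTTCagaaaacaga
Ifit3 (chr19:34583363-34583392, plus strand): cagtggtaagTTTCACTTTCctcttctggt
Ifit3 (chr19:34583397-34583426, plus strand): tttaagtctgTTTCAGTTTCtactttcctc
Rsad2, the antiviral enzyme viperin, was 10.65 in the array labelled deficient and 9.30 in control. Ifit3, an interferon-induced adaptor protein, was 10.87 in the array labelled deficient and 9.66 in control. Both differences, 1.35 and 1.21, passed 2-fold.

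Among all genes at or above the floor with a window, the share past 1.5-fold on the higher side was 14.4% for those with ISRE letters and 7.01% overall. Of 278 such genes, 40 (14.4%) were higher and 27 (9.71%) lower past 1.5-fold, against 603 (7.01%) and 750 (8.72%) of all 8599 genes with a window. Their median difference was -0.01, against -0.08. Most genes with the letters lay within 1.5-fold, while their shares past it were above those of all genes in both directions. The letters of the gamma-activated site had 46 of 612 genes higher (7.52%) and 41 lower (6.70%), and the TCF and LEF letters 23 of 258 higher (8.91%) and 18 lower (6.98%). No test was made of these shares.

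**Figure D3:**
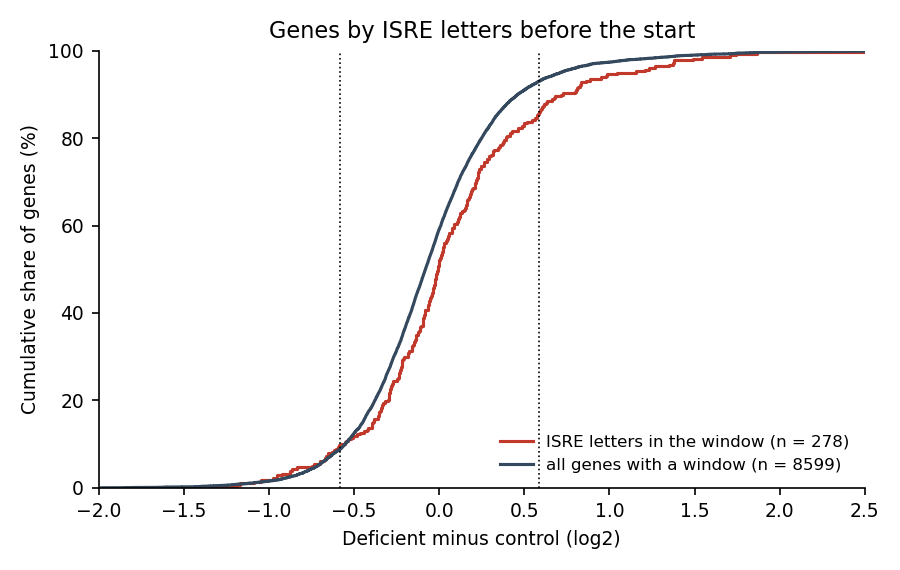
Cumulative share of genes (%) at or below each difference (array labelled deficient minus control, log2, shown from -2 to 2.5) for 278 genes with ISRE letters in the 250 bases before an annotated start, in red, and all 8599 genes with a window, in dark blue. Right of the upper dotted line at 1.5-fold lie 14.4% of genes with the letters and 7.01% of all.

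Targets of IRF1 and interferon-gamma were higher in part. Past 1.5-fold, 5 of 21 that reached the floor were higher and 1 was lower, and the median difference was 0.28. The immunity-related GTPase Iigp1 was 7.42 in the array labelled deficient and 5.20 in control, which is below the floor, a difference of 2.22. The adhesion receptor Vcam1 (1.01) and the GTPase Irgm1 (0.95) followed. The lowest were the chemokine Cxcl9 (-0.76), the MHC class I light chain B2m (-0.27) and the cytokine Il15 (0.17). Vcam1 is also made by stromal cells, of whose markers 10 of 11 were higher in the same array, and their part in its difference was not tested.

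Of the cytokine genes that IRF5 activates, 2 were lower, 2 lay within 1.5-fold and the others were dim, while Irf5 itself lay at 0.34. Past 1.5-fold, 0 of 4 that reached the floor were higher and 2 were lower, with a median difference of -0.27. Ccl5 was 8.89 in the array labelled deficient and 10.06 in control, a difference of -1.18. Tnf was 9.65 in the array labelled deficient and 10.34 in control, a difference of -0.68. Il1b (0.44) and Ccl4 (0.14) lay within 1.5-fold, and Il6, Il12a, Il12b and Il23a were below the floor in both arrays.

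Genes that IRF8 controls with PU.1 went both ways. Past 1.5-fold, 1 of 19 was higher and 2 were lower, with a median of 0.01 that turned to -0.00 under loess. Under centring 4 were higher and 1 was lower, with a median of 0.16. The highest were the Fc receptor Fcgr1 (0.78), the phosphatase Acp5 (0.58) and Pml (0.47), and the lowest were Klf4, a monocyte factor downstream of IRF8 (-0.89), the chemokine receptor Cx3cr1 (-0.68) and Nf1 (-0.55).

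Some genes of alternative activation, a state in which IRF4 acts, were higher, while Irf4 lay at -0.49 and below the floor. Of 14 measured genes, 10 reached the floor, and past 1.5-fold 5 of these were higher and 1 was lower. Clec10a, Arg1, Chil3 and Mgl2, 4 of the 5 higher genes, reached the floor only through the array labelled deficient (Mgl2 was chosen after its values were seen). Over all 14 without a floor, 5 were higher and 2 lower, and the median was 0.39, against 0.69 with the floor. The lectin Clec10a was 9.28 in the array labelled deficient and 6.32 in control, a difference of 2.96. Arg1, the arginase of alternatively activated macrophages, was 8.92 in the array labelled deficient and 6.39 in control, a difference of 2.53. Chil3, a chitinase-like protein that monocytes also make, was 9.10 in the array labelled deficient and 6.90 in control, a difference of 2.20. Among the 10 that reached the floor, the lowest were Ccl17 (-0.84), Myc (-0.17) and the histone demethylase Kdm6b (0.05). The genes below the floor in both arrays were Retnla (-0.85), Cd163 (0.09), Ccl22 (0.10) and Ciita (0.51), named after their values were seen. Retnla was thus lower than Ccl17, at 4.82 in the array labelled deficient and 5.66 in control.

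**Figure D4:**
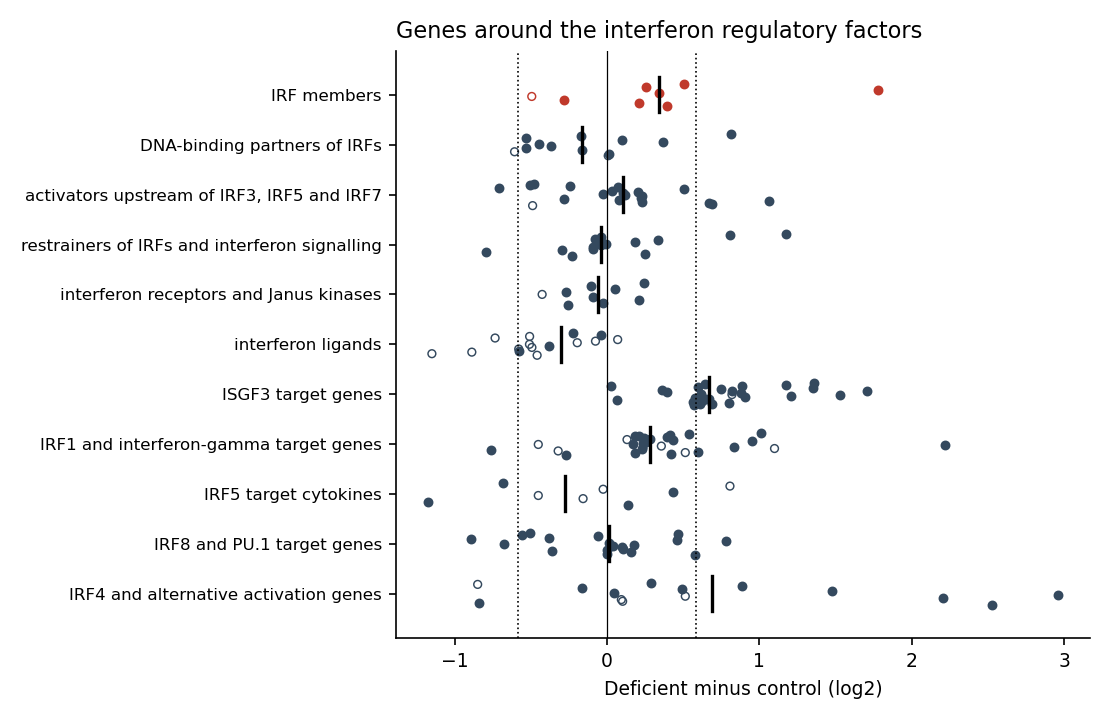
Difference (array labelled deficient minus control, log2) of each gene of the IRF family, in red, and of 10 lists of genes around it, in dark blue. Filled points are genes at or above the floor, open points are below it in both arrays, black bars are medians of the filled points and dotted lines mark 1.5-fold. The ISGF3 targets lie between 0.03 and 1.70, and the receptors and kinases between -0.43 and 0.24.

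Markers of other cells differed in the same array as Irf7 and the interferon targets, and their part in those differences was not tested. In bulk RNA, more cells of a type and more RNA per cell cannot be told apart. All 5 inflammatory monocyte markers in the table were at least 2-fold higher, from Chil3 (2.20) to F13a1 (1.34), with a mean level of 9.99 in the array labelled deficient and 8.25 in control. Past 1.5-fold, 10 of 11 stromal markers that reached the floor were higher and 0 lower, from Cxcl12 (2.87) to Thy1 (0.18), and the mean level of all 12 was 9.62 in the array labelled deficient and 8.33 in control. Of 14 neutrophil markers, 10 were higher and 0 lower, from Retnlg (2.57) to Camp (-0.43), with a mean level of 9.50 in the array labelled deficient and 8.47 in control. Of the higher genes, 1 monocyte (Chil3), 1 stromal and 3 neutrophil markers reached the floor only through the array labelled deficient. With the floor on the mean of both arrays, 5 monocyte, 10 stromal and 10 neutrophil markers were past 1.5-fold on the higher side.

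Plasmacytoid dendritic cells hold high IRF7 and IRF8 as a resting state. Of their 4 markers at or above the floor, 0 were past 1.5-fold, from Bst2 (0.57), which interferon also induces, to Cox6a2 (-0.54), and the mean level of the 7 in the table was 7.75 in the array labelled deficient and 7.93 in control. Siglech, a defining marker, was below the floor in both, at 6.40 in the array labelled deficient and 6.75 in control (chosen after its values were seen). Of 10 conventional dendritic cell markers, 4 reached the floor, and of these 3 were higher and 1 was lower past 1.5-fold, from Itgax (1.53) to Ccr7 (-0.63), while Flt3, Zbtb46, Xcr1 and Clec9a were below it in both arrays. Of the 3 higher genes, 2 reached the floor only through the array labelled deficient; with the floor on the mean the counts were 1 higher and 1 lower, and without a floor 3 and 3. The mean level of these 10 was 7.02 in the array labelled deficient and 6.92 in control.

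Lymphocyte markers, some of whose cells use IRF4, were mostly dim. Of 8 B and plasma cell markers 3 reached the floor, and of these 1 was higher and 0 lower past 1.5-fold, from Sdc1 (1.03) to Cd79b (0.32), with a mean level of all 8 of 7.42 in the array labelled deficient and 7.22 in control. Of 9 T and NK cell markers 1 reached it, Nkg7 (1.09), only through the array labelled deficient, and the mean level of all 9 was 5.68 in the array labelled deficient and 6.14 in control. Among macrophage markers the highest was Fcgr1 (0.78) and the lowest Lyz2 (-0.38), with a mean level of 11.36 in the array labelled deficient and 11.28 in control over 10 genes.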

How the data were processed

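The log2 values were used as the authors deposited them, with 25917 rows, and per the submitters' processing notes they came from RMA, which corrects background, normalizes between arrays and summarises probes. The sources used here do not give its version, its settings, the genome build or whether both columns came from 1 run. The log2 scale was read from the range, 2.12 to 13.98 in the array labelled deficient and 2.70 to 14.11 in control. Their medians were 7.24 and 7.31, so the columns did not share 1 distribution, and the reason was not tested.

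Gene names came from GEO's platform annotation (21632 with 1 symbol, 1560 with several, 2725 with none), updated through RefSeq GRCm38.p6. The highest row per gene was kept. With 1 array per group no p-value, error or count of significant genes exists; the number of arrays limits the precision. A gene was counted past 1.5-fold with its higher value at or above 7.28. The member genes and the 19 companion lists were chosen with earlier results of these data known, and list assignments are background knowledge. Rigi was matched as Ddx58. Named genes are all members, the 3 highest and lowest of each list on interferon signalling, partners or targets (all where the list has 8 or fewer genes), and the highest and lowest marker of each cell type. With 2 arrays no likeness of pattern was ranked. Promoter letters were searched in RefSeq windows. The size rule was run on simulated arrays with known changes, whose noise was set from the spread of differences between these 2 arrays. Without replicates this run cannot show how often noise alone passes 1.5-fold. Python 3.11.15, pandas 2.3.3 and statsmodels 0.14.6 were used.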

Additional observations from a re-analysis of the deposited data

How the results depend on the processing

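Each of the 8 members kept its sign under all 8 alternatives for its difference (leaving out the floor, setting it at the 75th percentile or on the mean, centring, quantile normalization, loess, and the mean or the lowest of a gene's rows). A floor cannot change a difference, and the choice of rows could change only Irf1, which has a second row. For the other members only centring, quantile normalization and loess could move it. Irf7 ranged from 1.78 to 1.93. The median of the 7 members that reached the floor was 0.34 and ranged from 0.29 to 0.49. Under centring 2 members were at least 1.5-fold higher, since Irf9 reached 0.66; the lowest row of Irf1 gave 0.19. For the members and the lists other than cell type markers, a count is printed here where it moved by over 1.5 times, and a difference or median where it moved by over 0.2 or crossed 1.5-fold. Without a floor, 1 partner, 3 interferon genes and 2 IRF4 and alternative activation genes were lower and 1 IRF5 target was higher, and the alternative activation median was 0.39; the conventional dendritic cell median turned to -0.17 and the T and NK cell median to -0.67. With the floor at the 75th percentile, 0 activators, 0 IRF1 targets, 1 IRF8 target and 0 alternative activation genes were lower, 1 restrainer, 3 IRF1 targets and 3 alternative activation genes were higher, and the IRF5 target median was -0.93. With the floor on the mean the alternative activation median was 0.50. Centring left 0 activators lower, 1 IRF5 target higher and 1 lower, and 4 IRF8 targets higher and 1 lower; quantile normalization and loess each gave 2 IRF8 targets higher. At 2-fold the higher genes were 0 partners, 1 activator, 1 restrainer, 6 ISGF3 targets, 2 IRF1 targets and 0 IRF8 targets, and the lower ones 0 activators, 0 restrainers, 0 IRF1 targets, 1 IRF5 target, 0 IRF8 targets and 0 alternative activation genes. The cell type marker lists moved in 31 further values; among these, the plasmacytoid median ran from -0.35 without a floor to 0.42 with the floor at the 75th percentile, where the stromal median was 1.44 and 1 conventional dendritic cell marker was higher. Without a floor 5 T and NK cell markers were lower and 3 B and plasma cell markers higher, and at 2-fold 6 stromal markers were higher. A stricter floor or fold keeps fewer genes by construction; the cause of the other moves was not tested. No paired analysis was possible because each group had 1 array, and for the same reason no replicate could be left out.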

Other observations

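The nearest measured genes beside the IRFs on the chromosome were taken by position in RefSeq. Some lay near the member's difference and others did not. Those named below are a part of them, and those beside Irf2 and Irf4 are not described. Irf7 lies between Phrf1 and Cdhr5. Phrf1 was 8.50 in the array labelled deficient and 8.52 in control, a difference of -0.02, and Cdhr5 was below the floor in both arrays, with a difference of 0.09. Irf9, at 0.50, lies between Rnf31, a subunit of the linear ubiquitin ligase complex, at 0.11, and Rec8, a meiotic cohesin gene below the floor in both arrays, at -0.39. The next measured gene past Rnf31 is Psme2, a subunit of the interferon-inducible proteasome activator, which was 11.91 in the array labelled deficient and 11.37 in control, a difference of 0.54. Irf8 is followed by Foxf1, a mesenchymal transcription factor, which was 7.77 in the array labelled deficient and 6.79 in control, a difference of 0.98, in the same array in which 10 of 11 stromal markers at or above the floor were higher. Irf1 is followed by the carnitine transporter gene Slc22a5, which was 7.57 in the array labelled deficient and 8.77 in control, a difference of -1.20, opposite to the 0.39 of Irf1. The span of Irf5 overlaps that of Tnpo3, which differed by -0.16 against 0.34 for Irf5. On either side of Irf5 lie Kcp (-0.20, below the floor in both arrays) and Tspan33 (-0.82). The next measured genes past them, Atp6v1f (0.35) and Smo (0.37), were close to Irf5. Beside Irf3, at -0.28, Prmt1 lay at -0.23, while Bcl2l12 (0.32) and Scaf1 (0.29) were on the higher side and Rras was at -0.00.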
